A study of Rattus norvegicus with 20 samples.

Results

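The voltage-gated sodium channel genes, 9 of the 39747 genes in the count table, were followed in rat dorsal root ganglia (DRG), the clusters of sensory nerve cell bodies beside the spinal cord. They were taken by gene symbol and comprise 6 genes of the pore-forming alpha subunit (Scn1a, Scn3a, Scn8a, Scn9a, Scn10a and Scn11a) and 3 of the accessory beta subunit (Scn2b, Scn3b and Scn4b). The study fed female Sprague-Dawley rats a soy oil diet (SOD, the AIN-93G-based control) or a fish oil diet rich in omega-3 fatty acids (FOD) for 4 weeks, then operated on the left sciatic nerve and sequenced poly-A RNA of whole ganglia. In chronic constriction injury (CCI), loose gut ligatures were tied round the nerve, and in the sham controls (CT) it was only exposed. On the left, 4 sham and 3 injured rats on soy oil (SOD-CT and SOD-CCI) and 3 sham and 4 injured rats on fish oil (FOD-CT and FOD-CCI) gave 1 library each. On the right, the contralateral side, 3 SOD-CCI and 3 FOD-CCI rats did. Each library was 1 side of 1 rat, so the 20 libraries came from 14 rats. FOD-CCI replicate 4 had no contralateral library, and no contralateral DRG of a sham rat was analysed here.

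Voltage-gated sodium channels open when the membrane depolarises and carry the inward current of the action potential. The alpha subunit forms the pore, and beta subunits set its gating and its placement in the membrane. Sensory neurons hold channels blocked by tetrodotoxin, here encoded by Scn1a (Nav1.1), Scn3a (Nav1.3), Scn8a (Nav1.6) and Scn9a (Nav1.7), and the tetrodotoxin-resistant channels of pain-sensing neurons, encoded by Scn10a (Nav1.8) and Scn11a (Nav1.9). Nav1.3 is best known as a channel of the embryonic nervous system that can reappear in injured sensory neurons.

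Promoters are shown for 3 genes, chosen for the following values. Scn3a had the largest fitted log2FC of the 9 genes after CCI in SOD-fed rats. Scn10a and Scn11a, which lie on the same chromosome, followed each other most closely of all member pairs across the 20 libraries. They did not do so across the 16 left without the 4 libraries described below, which held transcripts of other tissue. Each is the 250 bases before the annotated RefSeq start, on the strand of the gene, in the GRCr8 build, at chr3:70666199-70666448 (minus strand) for Scn3a, chr8:128340299-128340548 (minus strand) for Scn10a and chr8:128444719-128444968 (minus strand) for Scn11a. Capitals mark matches to the AP-1 motif TGANTCA or the Runx motif TGTGGT on either strand.
Scn3a: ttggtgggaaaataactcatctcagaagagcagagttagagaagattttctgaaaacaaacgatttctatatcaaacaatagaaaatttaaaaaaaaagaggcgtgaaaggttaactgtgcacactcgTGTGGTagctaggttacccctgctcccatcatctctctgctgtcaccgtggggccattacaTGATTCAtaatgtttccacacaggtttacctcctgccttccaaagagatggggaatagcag
Scn10a: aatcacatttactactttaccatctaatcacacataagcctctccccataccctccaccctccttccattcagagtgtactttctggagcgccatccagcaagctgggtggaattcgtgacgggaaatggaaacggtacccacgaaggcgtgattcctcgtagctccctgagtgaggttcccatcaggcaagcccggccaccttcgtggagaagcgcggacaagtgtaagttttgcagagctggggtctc
Scn11a: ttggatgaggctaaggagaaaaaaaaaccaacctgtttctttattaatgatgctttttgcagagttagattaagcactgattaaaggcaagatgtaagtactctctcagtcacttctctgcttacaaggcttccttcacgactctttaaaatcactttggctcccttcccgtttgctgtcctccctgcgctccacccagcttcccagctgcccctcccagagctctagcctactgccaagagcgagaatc
The promoter table matched 7 of the 9 genes, with no entry for Scn1a and Scn3b. The AP-1 motif, recognised by Jun and Fos family factors, stood in 1 of the 7, that of Scn3a, as TGATTCA from 61 to 55 bases before the start, and in 6.34% of all 33469 promoters. The Runx motif stood in 2 of the 7, in Scn3a from 122 to 117 bases before the start and in Scn2b on the opposite strand, and in 14.5% of all promoters. No member held the cyclic AMP response element TGACGTCA or the E-box CACGTG, found in 1.59% and 5.59% of all promoters. These matches describe letters in this window only. The G and C share was 41.6% in Scn3a, 53.2% in Scn10a and 46.4% in Scn11a, against a median of 51.2% over all promoters.

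Totals ran from 22547190 to 54437581 counted fragments per library (median 29051399), and all 9 genes passed the filter on low counts described with the methods. Several libraries carried transcripts of other tissue. In SOD-CT replicate 1, 5 skeletal muscle genes summed to 68500 CPM (counts scaled to the same total in every library), against 4.61 to 14000 CPM elsewhere. In replicate 1 of FOD-CT, FOD-CCI and FOD-CCI contralateral, 6 genes of spinal cord glia and neurons summed to 2070 to 4060 CPM, against 12.2 to 74.1 CPM in the other 17 libraries. Markers of neurons were low in some of these: the 10-gene neuron list summed to 7010 CPM in SOD-CT replicate 1 and to 3930 CPM in FOD-CCI contralateral replicate 1, where Isl1 had no count, against up to 23200 CPM elsewhere. The library labelled FOD-CCI replicate 1 also went against its label, since its injury genes Atf3, Sprr1a, Gal and Npy lay far below SOD-CCI. Atf3 stood at 3.27 CPM there, the lowest of all libraries, against 13.1 to 47.3 CPM in SOD-CT and 263 to 333 CPM in SOD-CCI. Results are therefore also given without these 4 libraries, or those of them that entered a fit, a choice made after seeing the data. The muscle genes also summed to 13990 CPM in FOD-CT replicate 2, 5609 CPM in FOD-CCI contralateral replicate 3 and 3712 CPM in SOD-CT replicate 4. Those libraries were kept when the 4 were left out. In whole ganglia, fewer cells of a type and less RNA per cell cannot be told apart.

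Per unit of gene length, Scn4b was the most abundant member in all 6 groups and Scn3a the least. As FPKM (fragments per kilobase of gene length, scaled by the authors to a depth of their own for each library), Scn4b, a beta subunit bound to the alpha subunit by a disulfide bridge, stood at 134 ± 27.9 (SD, n = 4) in SOD-CT and Scn3a at 0.394 ± 0.121. The channels of pain-sensing neurons came next in SOD-CT, with Scn10a at 39.7 ± 18.9, Scn9a at 38.4 ± 7.91 and Scn11a at 28.2 ± 8.73 FPKM. Their values overlapped between libraries. Scn1a, Scn8a, Scn3b and Scn2b followed at 17.2 ± 7.03, 11.6 ± 10.4, 10.5 ± 3.51 and 10.02 ± 6.55 FPKM, and the values of these neighbours overlapped too. In SOD-CCI, Scn3b stood at 32.4 ± 2.24 FPKM (n = 3), beside Scn11a at 32.3 ± 5.78 and above Scn2b at 11.8 ± 1.46, so it ranked 4 of 9 there and 7 of 9 in SOD-CT. Scn3a remained the lowest member in SOD-CCI at 1.95 ± 0.277 FPKM.

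**Figure D1:**
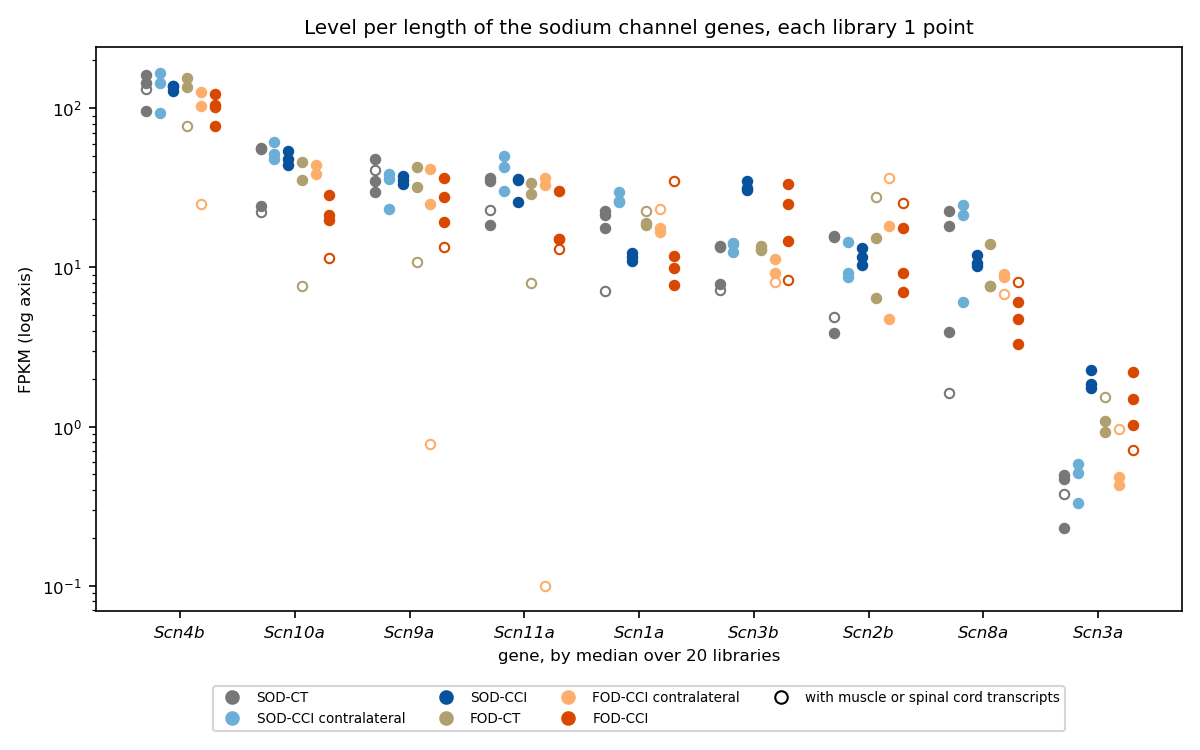
FPKM of each gene (log axis) in each of the 20 libraries, coloured by group, with the genes ordered by their median. By median, Scn4b lies highest and Scn3a lowest. The lone low values of Scn9a and Scn11a belong to FOD-CCI contralateral replicate 1. Scn10a had no count in that library, so it has no point there. Open points are replicate 1 of SOD-CT, FOD-CT, FOD-CCI and FOD-CCI contralateral.

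Across the 6 groups most orders were weak. Ranked by mean CPM, neighbouring groups overlapped in every member but Scn1a, whose highest group, SOD-CCI contralateral (233 ± 12.8 CPM, n = 3), lay above the next, FOD-CT (177 ± 31.7 CPM, n = 3), without overlap. Scn3a and Scn3b were both highest in SOD-CCI (14.2 ± 2.47 and 134 ± 12.7 CPM) and next in FOD-CCI (9.43 ± 4.499 and 80.3 ± 44.2 CPM, n = 4). Scn8a, Scn10a and Scn11a had their lowest mean in FOD-CCI, at 36.9 ± 13.7, 122 ± 39.7 and 109 ± 44.01 CPM.

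Spread within SOD-CT was wide. Scn10a stood at 83.4, 357, 354 and 141 CPM in its replicates 1 to 4, and Scn11a at 85.1, 228, 220 and 107 CPM. Scn8a stood at 6.67, 127, 159 and 25.2 CPM. Replicates 1 and 4 were thus the low libraries for all 3 genes, and also for Scn2b (2.63 and 3.23 CPM against 14.3 and 14.6 CPM) and Scn4b (356 and 403 CPM against 657 and 750 CPM). Their muscle genes summed to 68500 and 3712 CPM, against 108 and 4.61 CPM in replicates 2 and 3, and the part of this in the channel values was not tested. Scn1a, Scn3a and Scn3b, whose SOD-CT values are given below, split the same way. Of the 9 members only Scn9a did not follow this split, since its highest SOD-CT value, 437 CPM, was in replicate 4. The 9 members together summed to 831, 1990.0, 2049 and 1291 CPM in SOD-CT, to 1739 to 1935 CPM in SOD-CCI and to 1094 to 1292 CPM in FOD-CCI.

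In SOD-fed rats, the left DRG after CCI held more Scn3a and Scn3b than the sham DRG, the only members whose libraries did not overlap between the groups, but neither passed the adjusted threshold in the fit of all 14 left libraries. Scn3a stood at 1.62, 3.62, 3.45 and 1.53 CPM in SOD-CT and at 12.2, 16.96 and 13.5 CPM in SOD-CCI. All 3 injured libraries were far above the 4 sham libraries. Scn3b, a beta subunit that binds without a disulfide bridge, stood at 17.5, 56.3, 56.2 and 29.6 CPM in SOD-CT and at 126, 148 and 127 CPM in SOD-CCI. Here too the lowest injured library was above the highest sham library. Non-overlap in the higher direction was seen in 11.8% of the 14484 genes tested. The log2FC was 2.33 (SE 0.41, unadjusted p = 6.07e-05, edgeR adjusted p = 0.266) for Scn3a and 1.64 (SE 0.38, unadjusted p = 0.000708, adjusted p = 0.266) for Scn3b. No gene of the 14484 was called at an adjusted p of at most 0.1 with a fold change of at least 1.2 (percent called 0), while 2006 genes (13.8%) had an unadjusted p under 0.05 and DESeq2 called 594 (4.10%), Scn3a and Scn3b among them.

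Without SOD-CT replicate 1 and the 2 left libraries with spinal cord transcripts, edgeR called 1.32% of genes in this comparison and 3 of the 9 members. Scn3a was then higher by a log2FC of 2.29 (SE 0.38, adjusted p = 0.0343) and Scn3b by 1.48 (SE 0.28, adjusted p = 0.046). Scn1a, the channel of large myelinated neurons and many central interneurons, was lower by -0.81 (SE 0.17, adjusted p = 0.0678). With all libraries its log2FC was -0.54 (SE 0.48, adjusted p = 0.624), from 37.4, 202, 193 and 145 CPM in SOD-CT and 106, 108 and 98.5 CPM in SOD-CCI, so the SOD-CCI values lay between the muscle-rich sham library and the other 3. Leaving out only the library labelled FOD-CCI replicate 1, which belongs to neither group but shares the estimate of the spread, brought Scn3a to an edgeR adjusted p of 0.0722 and Scn3b to 0.078, among 0.321% of genes called.

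For the other 6 members the difference between SOD-CCI and SOD-CT did not exceed its error. Scn9a, whose channel amplifies small depolarisations in pain-sensing neurons, had a log2FC of -0.08, from 240, 345, 299 and 437 CPM in SOD-CT and 340, 343 and 377 CPM in SOD-CCI. Scn10a, whose channel carries most of the upstroke in these neurons, had a log2FC of 0.31, and Scn11a, whose channel gives a persistent current near rest, 0.22. Scn8a, the channel of the nodes of Ranvier, ranged from 6.67 to 159 CPM within SOD-CT alone and had a log2FC of -0.07. Scn2b and Scn4b, both disulfide-linked beta subunits, had log2FC of 0.25 and 0.04. The median over the 9 members was 0.22, against -0.01 over all genes tested. Without SOD-CT replicate 1 and the left libraries with spinal cord transcripts it was 0.01, against -0.02. Longer genes had higher log2FC in SOD-CCI against SOD-CT (Spearman rho 0.231 across genes, a description). With this length trend removed the members' median was 0.07, against -0.04.

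**Figure D2:**
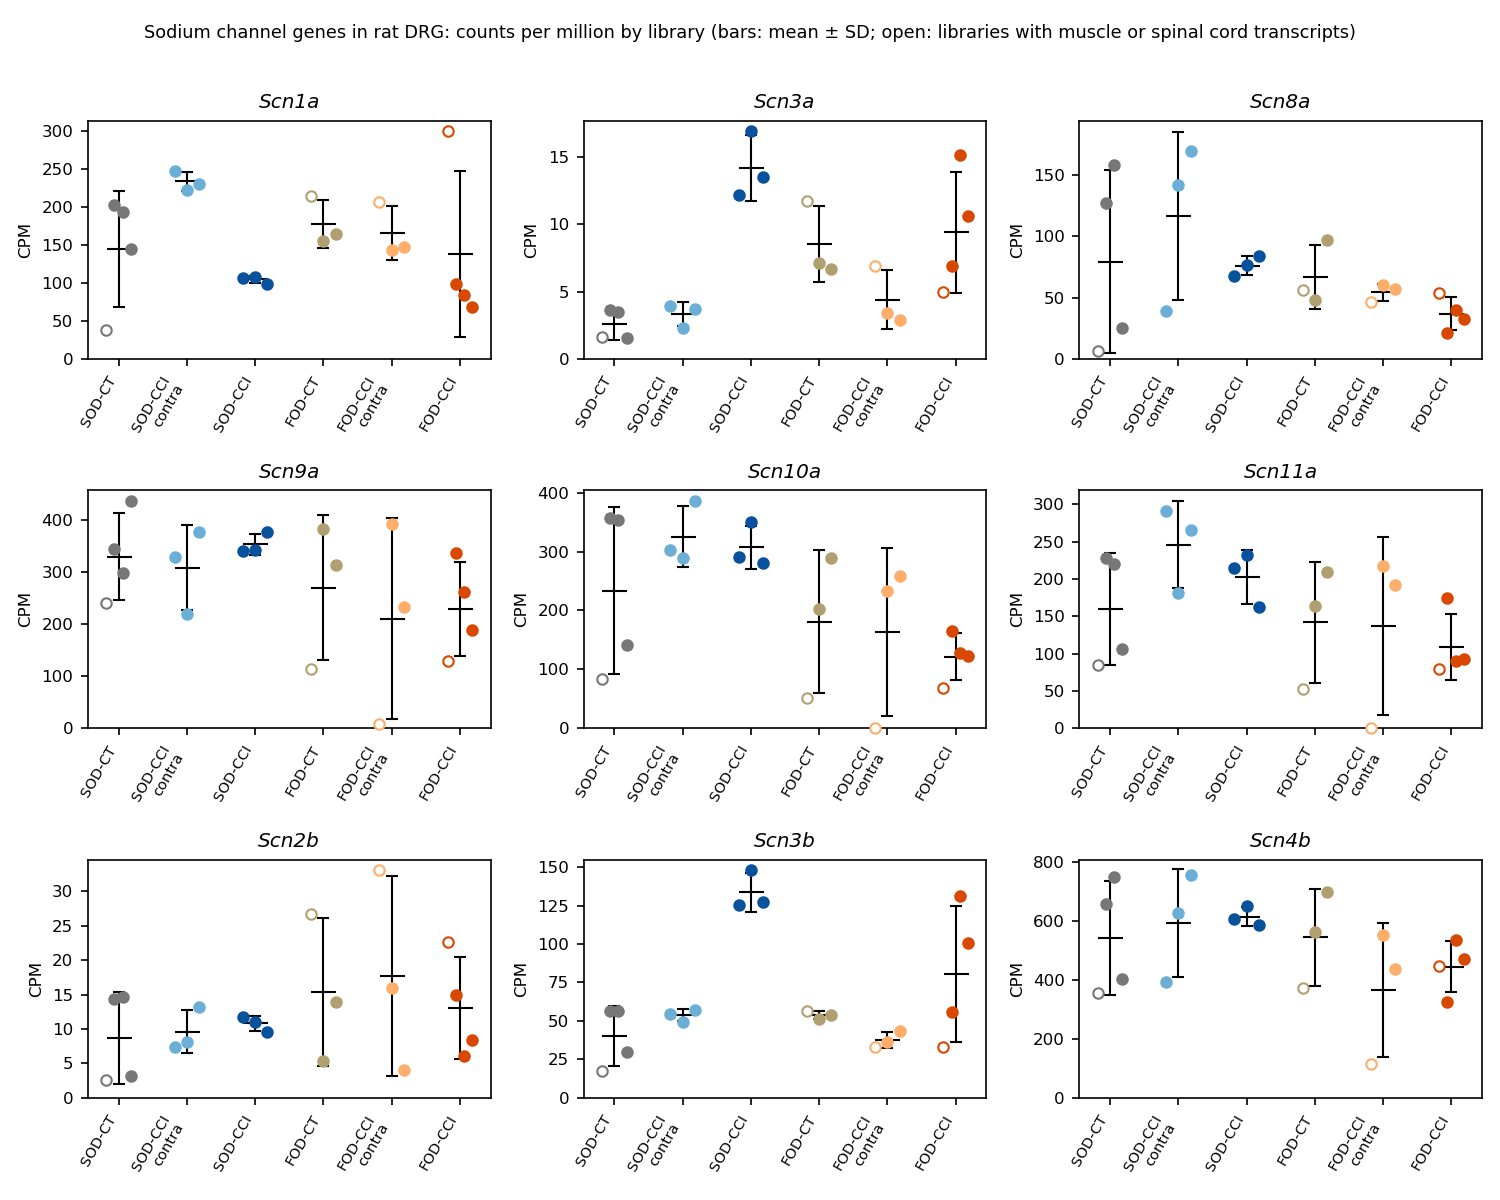
CPM of each gene in each library (points) with the mean and SD of each group (bars). Open points are replicate 1 of SOD-CT, FOD-CT, FOD-CCI and FOD-CCI contralateral. Filled points include other libraries with muscle transcripts, such as FOD-CT replicate 2. Scn3a and Scn3b lie higher in all 3 SOD-CCI libraries (12.2 to 16.96 and 126 to 148 CPM) than in any SOD-CT library.

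In FOD-fed rats no member was called after CCI, nor was any gene of the 14484 (percent called 0), with 654 genes (4.52%) at an unadjusted p under 0.05 and 21 (0.145%) called by DESeq2. Scn3b stood at 56.2, 51.1 and 53.5 CPM in FOD-CT and at 33.1, 56.0, 132 and 101 CPM in FOD-CCI, where the value of 33.1 CPM is that of replicate 1. Its log2FC was 0.62 (SE 0.39, edgeR adjusted p = 1), and 0.85 (SE 0.32, unadjusted p = 0.0198, adjusted p = 0.222) without the 4 libraries. Scn3a stood at 11.8, 7.12 and 6.71 CPM in FOD-CT and at 4.98, 6.92, 15.2 and 10.6 CPM in FOD-CCI, so the groups overlapped, with a log2FC of 0.20. Scn1a stood at 214, 154 and 164 CPM in FOD-CT and at 300, 98.1, 84.0 and 67.8 CPM in FOD-CCI. Replicates 2, 3 and 4 of FOD-CCI lay below every FOD-CT library and replicate 1 lay above them all. Its log2FC of -0.32 with all libraries became -0.95 (SE 0.19, adjusted p = 0.0389) without the 4 libraries, where Scn1a was the 1 member called among 3.47% of genes called. Scn8a and Scn10a had log2FC of -0.82 (SE 0.64) and -0.56 (SE 0.50), and Scn9a, Scn11a, Scn2b and Scn4b lay between -0.36 and -0.15. The median over the members was -0.27, against 0.01 over all genes.

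The 2 sham groups differed in the level of Scn3a, which was higher in every FOD-CT library (6.71 to 11.8 CPM) than in any SOD-CT library (1.53 to 3.62 CPM). Such non-overlap in the higher direction was seen in 2.22% of genes. The log2FC was 1.61 (SE 0.41, unadjusted p = 0.00145), which did not pass the adjustment (edgeR adjusted p = 0.965), and 1.35 (SE 0.40, unadjusted p = 0.00543, adjusted p = 1) without the 4 libraries. No gene was called between the sham groups by edgeR or DESeq2 (percent called 0), and 491 (3.39%) had an unadjusted p under 0.05. The difference of the CCI effect between diets was -2.13 (SE 0.57, unadjusted p = 0.0022, adjusted p = 0.894) for Scn3a, and -1.66 (SE 0.53, adjusted p = 0.714) without the 4 libraries. For Scn3b it was -1.02 (SE 0.53, adjusted p = 0.894). EdgeR called no gene for this difference (percent called 0) and DESeq2 called 42, none of them a member, so a CCI effect that differed between diets was not shown for any of them.

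Between the injured groups, 4 members had lower values in every FOD-CCI library than in any SOD-CCI library, but no member and no gene was called (percent called 0). Scn10a stood at 290, 349 and 281 CPM in SOD-CCI and at 69.2, 166, 128 and 123 CPM in FOD-CCI, with no overlap. Its log2FC was -1.27 (SE 0.50, unadjusted p = 0.0247, edgeR adjusted p = 0.859), and -1.06 (SE 0.28, unadjusted p = 0.00273, adjusted p = 0.22) without the 4 libraries. Scn8a stood at 67.9, 76.8 and 83.9 CPM in SOD-CCI and at 53.9, 21.3, 39.8 and 32.4 CPM in FOD-CCI, with a log2FC of -0.99 (SE 0.64). Scn9a (340 to 377 CPM against 129 to 337 CPM) and Scn4b (586 to 649 CPM against 326 to 535 CPM) did not overlap either, with log2FC of -0.56 and -0.40. Beside these 4 of 9 members, 9.28% of all genes lay lower without overlap. Scn11a had a log2FC of -0.83 (SE 0.42, unadjusted p = 0.0721), Scn3b -0.67 and Scn3a -0.52, while Scn1a and Scn2b had 0.46 and 0.33, both of which turned negative without the library labelled FOD-CCI replicate 1 (-0.25 and -0.07). DESeq2 called 2 genes (0.0138%), neither a member, and 782 genes (5.40%) had an unadjusted p under 0.05 with edgeR.

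The median log2FC of the members between FOD-CCI and SOD-CCI was -0.56, against 0.04 over all genes. Longer genes had lower log2FC in this comparison (Spearman rho -0.347 across genes, a description), and the members were long, with a median of 5916 bases against 2357 bases over all genes tested. With the length trend removed the members' median was -0.30, against 0.05 over all genes, and no member had an unadjusted p under 0.05. The log2FC of Scn10a was then -1.05 (SE 0.49, unadjusted p = 0.0512, adjusted p = 0.995).

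**Figure D3:**
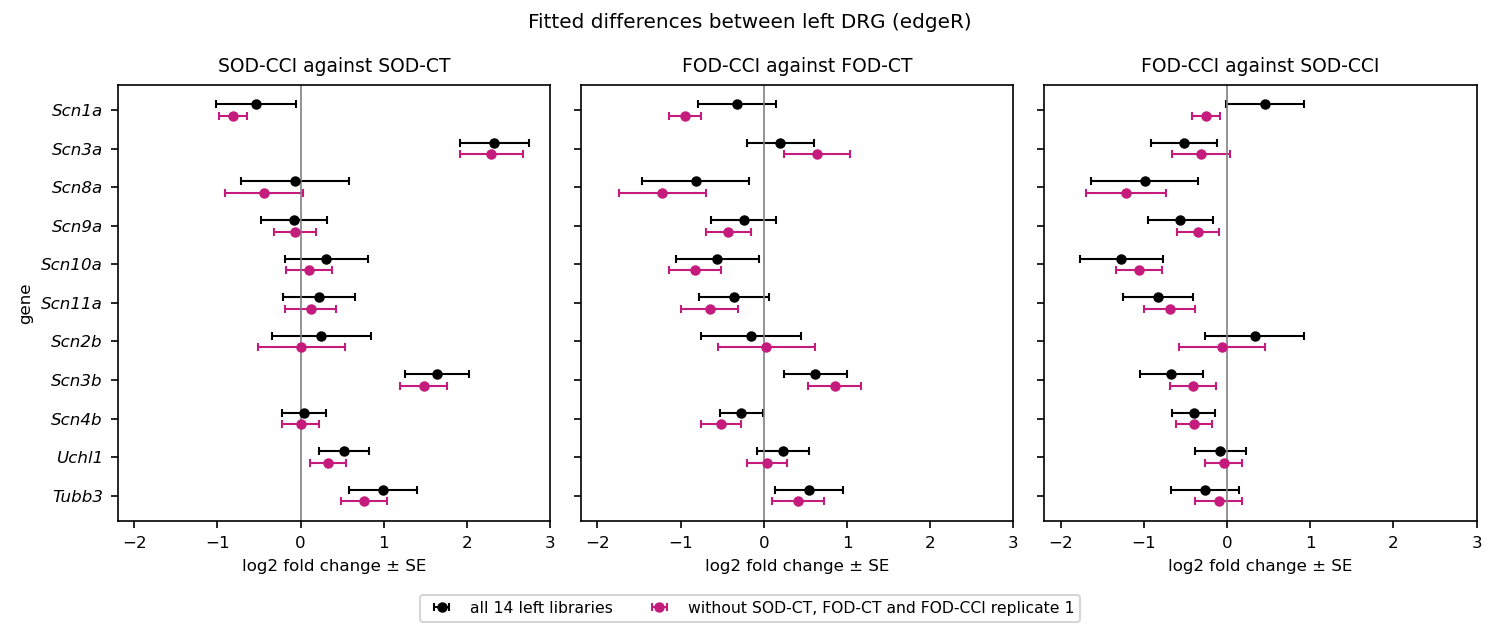
Fitted log2FC ± SE of each gene and of Uchl1 and Tubb3 in 3 comparisons of left DRG. Values are shown with all 14 libraries and without replicate 1 of SOD-CT, FOD-CT and FOD-CCI. Scn3a (2.33) and Scn3b (1.64) stand furthest to the right in SOD-CCI against SOD-CT, and Scn10a (-1.27) furthest to the left in FOD-CCI against SOD-CCI.

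The left DRG was then compared with the contralateral DRG of the same rat in the 6 CCI rats with both sides, with the rat as a block and FOD-CCI replicate 4 left out. Over both diets edgeR called 140 of 14549 genes (0.962%), and Scn3b was the 1 member among them. It stood at 126 against 54.5 CPM, 148 against 49.5 CPM and 127 against 57.2 CPM, left against contralateral, in the 3 SOD-CCI rats. In the FOD-CCI rats it stood at 33.1 against 33.0 CPM, 56.0 against 36.4 CPM and 132 against 43.3 CPM. The left side was higher in 6 of 6 rats, by next to nothing in FOD-CCI rat 1, and such a rise in every rat was seen in 5.16% of genes. Scn3b rose by a log2FC of 1.01 (SE 0.19, unadjusted p = 0.00049, adjusted p = 0.0758), and by 1.18 (SE 0.16, adjusted p = 0.00451) without FOD-CCI rat 1. Without any 1 of the other 5 rats it was not called, with a log2FC of 0.81 to 1.04 and an adjusted p of 0.152 to 0.397, nor was it without the rat block (adjusted p = 0.251).

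Scn1a was lower in the left DRG of 5 of 6 rats and Scn3a higher in 5 of 6, and for both the exception was FOD-CCI rat 1. Scn1a stood at 106 against 247 CPM, 108 against 222 CPM and 98.5 against 230 CPM in the SOD-CCI rats. In the FOD-CCI rats it stood at 300 against 207 CPM, 98.1 against 143 CPM and 84.0 against 147 CPM. The SOD-CCI ratios were close to each other, from 0.428 to 0.485. Scn3a stood at 12.2 against 3.95 CPM, 16.96 against 2.32 CPM and 13.5 against 3.68 CPM in the SOD-CCI rats, and at 4.98 against 6.92 CPM, 6.92 against 3.37 CPM and 15.2 against 2.92 CPM in the FOD-CCI rats. Over both diets the log2FC was -0.74 (SE 0.19, adjusted p = 0.18) for Scn1a and 1.53 (SE 0.39, adjusted p = 0.176) for Scn3a, and neither was called. Without FOD-CCI rat 1 both were, at -0.95 (SE 0.13, adjusted p = 0.00508) and 1.88 (SE 0.32, adjusted p = 0.0128), in a fit that called 7.64% of genes. DESeq2 on all 6 rats called Scn1a, Scn3a and Scn3b among 790 genes (5.43%).

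Within the SOD-CCI rats alone, edgeR called 19 genes (0.131%) and no member. The log2FC was 2.07 (SE 0.55, unadjusted p = 0.00439, adjusted p = 0.295) for Scn3a, 1.26 (SE 0.27, unadjusted p = 0.00109, adjusted p = 0.186) for Scn3b and -1.21 (SE 0.27, unadjusted p = 0.00154, adjusted p = 0.212) for Scn1a. Each kept its direction in 3 of 3 rats, as did 41.0% of all genes. When FOD-CCI rat 1 left the shared fit, all 3 were called, with adjusted p = 0.0385, 0.0183 and 0.00907, among 3.14% of genes. Within the FOD-CCI rats edgeR called 2 genes (0.0137%) and no member, with a log2FC of 0.76 (SE 0.27, adjusted p = 0.623) for Scn3b, 1.00 (SE 0.56) for Scn3a and -0.26 for Scn1a. Without rat 1, which leaves 2 FOD-CCI rats, these became 1.11 (SE 0.25, adjusted p = 0.131), 1.70 (SE 0.50, adjusted p = 0.228) and -0.68 (SE 0.21, adjusted p = 0.234), none of them called, beside 0.914% of genes. The difference of the left-right ratio between diets passed for no gene with edgeR (percent called 0), with 424 genes (2.91%) at an unadjusted p under 0.05 and 60 (0.412%) called by DESeq2. Its smallest unadjusted p among the members was that of Scn1a (0.95, SE 0.38, unadjusted p = 0.0341, adjusted p = 0.997), and without rat 1 it was 0.54 (SE 0.26, adjusted p = 0.999).

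The tetrodotoxin-resistant channels turned on a single rat in this comparison. In the contralateral DRG of FOD-CCI rat 1, Scn10a had no count and Scn11a 0.621 CPM, against 234 and 259 CPM of Scn10a and 218 and 192 CPM of Scn11a in the other FOD-CCI contralateral libraries. Scn9a was low there too, at 7.63 CPM against 392 and 232 CPM. With this rat the FOD-CCI log2FC of Scn10a was 0.79 (SE 1.60). Without it, the value was -0.76 (SE 0.24, unadjusted p = 0.0119, adjusted p = 0.263) for Scn10a and -0.71 (SE 0.30, adjusted p = 0.379) for Scn11a. In the SOD-CCI rats the left-right log2 ratios of Scn10a ran from -0.45 to 0.28, on both sides of 0.

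**Figure D4:**
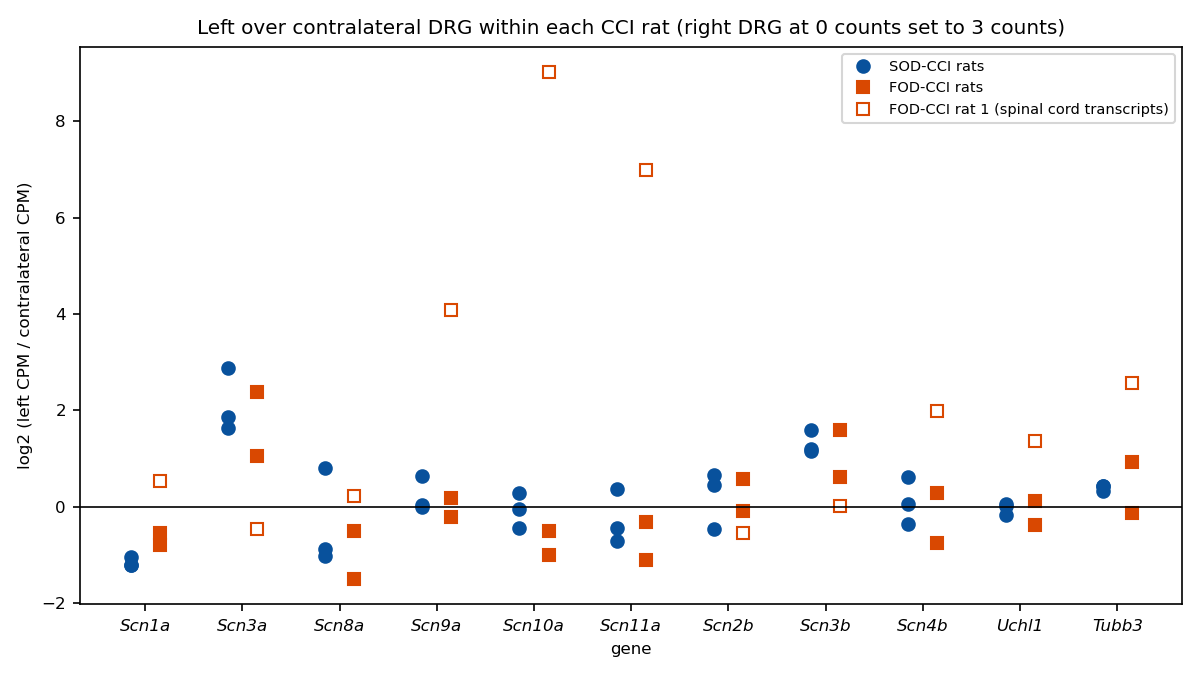
Log2 ratio of left over contralateral CPM within each of the 6 CCI rats (points, coloured by diet group). Scn3b lies at or above 0 in 6 of 6 rats (0.01 to 1.60), while Scn1a lies below 0 and Scn3a above 0 in all but FOD-CCI rat 1.

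No member was called between the contralateral DRG of CCI rats and the sham DRG, and none had an unadjusted p under 0.05 in the fit of 13 libraries. Scn1a was higher in every SOD-CCI contralateral library (222 to 247 CPM) than in any SOD-CT library (37.4 to 202 CPM), with a log2FC of 0.66 (SE 0.32), and 4.23% of genes did not overlap in that direction. Scn3b was lower in every FOD-CCI contralateral library (33.0 to 43.3 CPM) than in any FOD-CT library (51.1 to 56.2 CPM), with a log2FC of -0.48 (SE 0.27) and a share of 4.74% of genes. Between diets, the contralateral values of Scn1a, Scn10a and Scn3b lay lower in FOD-CCI without overlap, as did 8.93% of genes. Without the 4 libraries the log2FC of Scn1a was 0.41 (SE 0.17, unadjusted p = 0.0361, adjusted p = 0.795) against SOD-CT and -0.66 (SE 0.20, unadjusted p = 0.00559, adjusted p = 0.305) between diets, and that of Scn3b against FOD-CT was -0.38 (SE 0.28). EdgeR called no gene in these comparisons (percent called 0), and DESeq2 called 52 genes (0.371%) for SOD-CCI contralateral against SOD-CT, 0 for FOD-CCI contralateral against FOD-CT and 58 (0.414%) between diets, none of them a member. Against the sham DRG, side and surgery cannot be told apart.

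The genes of the neuron list differed in direction from each other. In SOD-CCI against SOD-CT, Uchl1 had a log2FC of 0.52 (SE 0.30, unadjusted p = 0.11) and Tubb3, a tubulin of neurons that growing axons use, 0.99 (SE 0.41, unadjusted p = 0.0286). Of the 10 genes of the neuron list, 6 had a positive and 4 a negative log2FC, with Nefl, a neurofilament subunit, at -0.56 (SE 0.39) and Snap25, of the vesicle release machinery, at -0.58 (SE 0.34). Tubb3 stood at 5601, 4720 and 4363 CPM in SOD-CCI and at 789, 3507, 2781 and 2230 CPM in SOD-CT. Scaling every library to the summed counts of Uchl1 and Tubb3, of which Tubb3 had the more, moved the median log2FC of all genes to -0.94 in this comparison. On this scale 27.8% of genes were called. On that scale Scn3a was 1.45 (SE 0.53, adjusted p = 0.0808) and Scn3b 0.82 (SE 0.37, adjusted p = 0.116), below the 2.33 and 1.64 of the main fit. Scn1a was -1.30 (SE 0.58, adjusted p = 0.117) and Scn4b -0.90 (SE 0.37, adjusted p = 0.1). Such scaling shifts all genes by nearly the same amount, so the distance of a gene to the median cannot serve as added support. Between FOD-CCI and SOD-CCI the log2FC was -0.08 for Uchl1 and -0.27 for Tubb3, and 8 of the 10 neuron genes had a negative value. The list median was -0.12, against 0.04 over all genes. Its sum overlapped between the groups, at 19300 to 23200 CPM in SOD-CCI and 16000 to 22900 CPM in FOD-CCI. Avil, an actin-binding protein of sensory neurons, was the only gene of the list with an unadjusted p under 0.05. It stood at 492 to 587 CPM in SOD-CCI and at 194 to 332 CPM in FOD-CCI, with a log2FC of -0.998 (SE 0.40, unadjusted p = 0.0258, adjusted p = 0.859). The part of neuron content in the lower channel values was not tested. Scn10a on the marker scale was -0.97 (SE 0.45, unadjusted p = 0.0454, adjusted p = 0.918). In the left-right comparison over both diets Tubb3 had a log2FC of 0.73 (SE 0.31, unadjusted p = 0.0414) and Uchl1 0.14. Scaled to Uchl1 and Tubb3, Scn3b was 0.57 (SE 0.39, adjusted p = 0.465) and was no longer called, beside 0.412% of genes.

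Of the other channel subunits, Scn2a, Scn4a and Scn7a were tested and none of these was called in any comparison. Scn2a, a channel of central neurons, reached 60.5 CPM in FOD-CT replicate 1, a library with spinal cord transcripts, against 2.04 and 4.88 CPM in the other FOD-CT libraries. Of 19 genes whose proteins anchor, traffic or modify these channels or set the sodium gradient, 17 were tested. In SOD-CCI against SOD-CT 14 had a positive log2FC and 3 a negative one, none was called, and the median was 0.32. In FOD-CCI against SOD-CCI 4 had a positive and 13 a negative log2FC (median -0.40, against 0.04 over all genes). The gene length trends of these comparisons were not removed here. After CCI on fish oil 7 were positive and 10 negative (median -0.07, against 0.01 over all genes), and none was called in either. In SOD-CCI against SOD-CT an unadjusted p under 0.05 was reached by 2 of the 17, beside 13.8% of all genes, namely by Fgf12, an intracellular modulator of channel inactivation (-0.73, SE 0.26, adjusted p = 0.294), and by Ank3, which anchors channels at the initial segment and nodes (0.57, SE 0.22, adjusted p = 0.306). In FOD-CCI against FOD-CT it was reached by 2 of the 17, beside 4.52% of all genes, among them Fgf12 (-0.58, SE 0.25). In FOD-CCI against SOD-CCI it was reached by 1, beside 5.40% of all genes, namely Ank2, another ankyrin (-0.66, SE 0.30).

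Across the 20 libraries, the gene most like Scn10a among 14435 genes was Scn11a, with Pearson r = 0.992 of log2 CPM. It was 0.898 over the 16 libraries left without replicate 1 of SOD-CT, FOD-CT, FOD-CCI and FOD-CCI contralateral. Prdm12 and Tusc5 were as close to Scn10a (both r = 0.992, and 0.876 over the 16). Scn9a was most like Acpp at r = 0.972, a value that dropped to 0.537 over the 16 libraries. Scn3b was most like Rab15 (r = 0.95, and 0.963 over the 16), Scn8a most like Cntn2 (0.974 and 0.971), Scn1a most like Rcan2 (0.959 and 0.928) and Scn3a most like Sidt2 (0.876 and 0.874). Scn4b was most like Vwa7 (0.957 and 0.861) and Scn2b most like Tmem151b (0.9 and 0.818). These libraries share tissue composition and depth, and the correlations are descriptions only.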

How the data were processed

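Poly-A RNA-seq libraries of 20 DRG of 14 rats were analysed from 2 tables of the whole series. The deposited counts are raw fragment counts per gene, made by the authors with fastp, HISAT2 and featureCounts (1.5.0-p3). Strand use, build and multimapping settings are not given in the sources used here, so reads shared between similar alpha subunit genes, or with antisense genes, could be split unevenly. The FPKM values, also made by the authors, equalled count over gene length and a library constant (9210 genes checked), which was 0.628 times the total count in SOD-CT replicate 1 and 0.965 to 1.13 times elsewhere. They served only for levels between genes. Members and gene lists were chosen with earlier results of these data known. Groups came from the sample titles, and left and right DRG were paired by the rat number in the library names.

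CPM were counts over the library total. Tests took genes that reached 10 counts in 90% or more of the libraries in a fit and were made with edgeR (4.0.16, R 4.3.3) quasi-likelihood F tests on TMM-normalised counts. A call needed p of 0.1 or less after Benjamini-Hochberg adjustment over all genes tested, with a fold change of at least 1.2. These are the filter and thresholds of the study, which used DESeq2. The fits were the 14 left DRG (1 mean per group), the 12 DRG of the 6 CCI rats with both sides (rat as block) and the 13 sham and contralateral DRG. The SE is the size of the log2FC over the square root of F. Sides of 1 rat deviated together (correlations 0.132 to 0.415). Same-numbered libraries of different rats did so too for FOD-CCI and FOD-CT (0.184 to 0.419) and for FOD-CCI contralateral and FOD-CT (0.163 to 0.583). The main fits held no block for these. No 2 replicates of a group agreed within counting noise, since the mean chi-square per gene was at least 24.2 over 24 pairs. Their Spearman rho ran from 0.862 to 0.937. All members and the markers Uchl1 and Tubb3 are named throughout, other subunits as a list, partner genes where they had the smallest p, and for likeness the genes of highest r. Some genes of these lists are not reported here. Alternatives were DESeq2 (1.42.0), its size factors, no filter, limma (3.58.1) on log2(FPKM + 1) or log2(FPKM + 0.1), scaling to both markers, removal of the gene length trend, a block by replicate or none, and leaving out libraries. The edgeR procedure was tested on simulated data.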

Additional observations from a re-analysis of the deposited data

Results flagged for a closer look

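Among the 22 sets of 4 libraries examined (the 9 members and both neuron markers in SOD-CT and FOD-CCI), 2 had a highest library whose gap to the nearest, divided by the range, exceeded the 95% critical value of 0.829. Chance alone gives about 1 such set in 20. Scn1a stood at 299.6 CPM in the library labelled FOD-CCI replicate 1, with the nearest at 98.06 CPM (ratio 0.869). That library also held spinal cord transcripts and injury genes far below the SOD-CCI level, and their part in the value was not tested. Scn11a stood at 174.5 CPM in FOD-CCI replicate 2, with the nearest at 92.31 CPM (ratio 0.865).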

How the results depend on the processing

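The direction of Scn3a and Scn3b in SOD-CCI against SOD-CT and in the left-right comparisons over both diets held under every alternative run, while their calls did not. In SOD-CCI against SOD-CT, where 0 members were called, 2 were called with DESeq2 (594 genes in all, 4.10%). On the scale of Uchl1 and Tubb3, 2 were called (Scn3a and Scn4b, of 4027 genes, 27.8%). Without the libraries with spinal cord transcripts 2 were called (87 genes in all, 0.592%). When SOD-CT replicate 1 was left out as well, 3 were called (200 genes, 1.32%). Leaving out 1 library gave 0 to 2 (2 without FOD-CCI replicate 1, with 47 genes, 0.321%). In FOD-CCI against FOD-CT, 1 was called in place of 0 without SOD-CT replicate 1 and the spinal cord libraries. In the SOD-CCI left-right comparison, 3 in place of 0 were called with DESeq2 (472 genes against 19). With no filter 2 were called (220 genes), and 3 without the rat with spinal cord transcripts (471 genes). Leaving out 1 rat gave 0 to 3 (3 without FOD-CCI rat 1, 1 without FOD-CCI rat 3), beside 0 to 471 genes in all. Over both diets, 3 in place of 1 were called with DESeq2 (790 genes against 140), with no filter (456 genes) and without that rat (1146 genes), and 0 without the rat block, on the marker scale (60 genes) and with limma on log2(FPKM + 0.1), with 0 to 3 when 1 rat was left out (3 without FOD-CCI rat 1 and 0 without any of the other 5). Adding or removing the block by replicate number changed no other call of a member. With the FOD-CCI and FOD-CT libraries blocked by number, Scn2b was 0.14. Adjusted p over the alternatives ran from 0.000283 to 0.647 for Scn3a and from 0.0165 to 0.647 for Scn3b in SOD-CCI against SOD-CT, and from 0.000115 to 0.465 for Scn3b over both diets.

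Signs that turned belonged to values that were not called with all libraries, and of these only Scn4b in SOD-CCI against SOD-CT was called after turning, on the marker scale. The cause was not tested. On the marker scale, which lowers all genes where the markers rise, log2FC turned negative for Scn10a (-0.46), Scn11a (-0.66), Scn2b (-0.49) and Scn4b (-0.90) in SOD-CCI against SOD-CT, for Scn3a (-0.50) in FOD-CCI against FOD-CT, for Scn2b (-0.01) and Scn4b (-0.13) in the SOD-CCI left-right comparison, for Scn4b (-0.25) in that of FOD-CCI, and for Scn2b (-0.38) and Scn4b (-0.19) over both diets. Without the rat block they turned for Scn10a (-0.46) and Scn11a (-0.27) in FOD-CCI and for Scn10a (-0.29), Scn11a (-0.30) and Scn2b (-0.05) over both diets. Without the rat with spinal cord transcripts they turned for Scn10a (-0.76), Scn11a (-0.71), Scn2b (0.23), Scn4b (-0.24) and Scn9a (-0.03) in FOD-CCI and for Scn10a (-0.45), Scn11a (-0.52) and Scn4b (-0.09) over both diets. Without the spinal cord libraries, and with SOD-CT replicate 1 also left out, FOD-CCI against SOD-CCI gave Scn1a -0.26 and -0.25 and Scn2b -0.07 and -0.06, and FOD-CCI against FOD-CT gave Scn2b 0.04 and 0.03. Without SOD-CT replicate 1 and FOD-CT replicate 2, the libraries highest in muscle transcripts, Scn9a was 0.17 in FOD-CCI against FOD-CT. Removal of the length trend gave Scn4b -0.13 in SOD-CCI against SOD-CT and -0.03 in the SOD-CCI left-right comparison, and Scn2b 0.04 in that of FOD-CCI, where no filter gave 0.03. Limma gave Scn8a 0.44 on log2(FPKM + 1) and 0.58 on log2(FPKM + 0.1) in SOD-CCI against SOD-CT.

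Leaving out 1 library or rat at a time spanned 0 for these values. In the FOD-CCI left-right comparison the ranges were -0.76 to 3.23 for Scn10a, -0.71 to 2.91 for Scn11a, -0.68 to 0.05 for Scn1a, -0.28 to 0.23 for Scn2b, -0.24 to 1.15 for Scn4b and -0.03 to 2.11 for Scn9a. In that of SOD-CCI they were -0.30 to 0.02 for Scn10a, -0.06 to 0.46 for Scn2b, -0.21 to 0.25 for Scn4b and -0.02 to 0.27 for Scn9a, and over both diets -0.45 to 1.55 for Scn10a, -0.52 to 1.30 for Scn11a, -0.06 to 0.23 for Scn2b and -0.09 to 0.59 for Scn4b. In FOD-CCI against SOD-CCI they were -0.25 to 0.69 for Scn1a and -0.07 to 0.57 for Scn2b, in FOD-CCI against FOD-CT -0.56 to 0.44 for Scn2b, -0.14 to 0.43 for Scn3a and -0.62 to 0.19 for Scn9a, and in SOD-CCI against SOD-CT -0.02 to 0.56 for Scn2b, -0.09 to 0.15 for Scn4b, -0.46 to 0.47 for Scn8a and -0.18 to 0.05 for Scn9a. The lowest count in a library was 37 for Scn3a, 60 for Scn2b, 14 for Scn11a and 0 for Scn10a, which limits the precision there.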
